A study of Gallus gallus with 2 samples.

Results

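The platelet-derived growth factor (PDGF) family on these chick embryo arrays comprised 4 ligand genes (PDGFA, PDGFB, PDGFC and PDGFD) and 2 receptor genes (PDGFRA and PDGFRB). Its members were all 10 probe sets annotated with 1 of these 6 symbols, out of 38382 probe sets. Of these, 27168 carried 1 gene symbol and stood for 13009 named genes. The family was chosen with its difference between the arrays already known, so the values below describe that difference and test nothing.

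RNA came from 2 tissues of Gallus gallus embryos, with 1 GeneChip Chicken Genome array each. All embryos were incubated for about 12 h at 37.5 °C and electroporated at stage HH3 with pCer2.5-EGFP, a plasmid in which 2.5 kb of Cerberus upstream sequence drives a green fluorescent protein. Heart forming regions (HFR) that showed the fluorescence and the posterior part of the primitive streak (PPP) were cut out at HH4-4+, which another label gives as HH4-5, and 45 ng of total RNA was amplified in 2 rounds. The EGFP marks the cells in which the plasmid was taken up and the Cerberus fragment is active. The HFR pieces were thus selected by a reporter and by region, and neither piece is a pure cell type. The number of embryos in each piece of RNA is not stated in the labels.

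PDGFs are secreted dimers that bring 2 receptor tyrosine kinase chains together at the cell surface. PDGFA signals through PDGFRA, PDGFB binds both receptors, and PDGFC and PDGFD carry an extra CUB domain that must be cut off before they bind, PDGFC chiefly to PDGFRA and PDGFD to PDGFRB. In gastrulating vertebrate embryos PDGFA is typically made by the epithelial layer and PDGFRA by the mesoderm beneath it, and in the chick this signalling is known to act on mesoderm cells that migrate away from the streak.

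Values are model-based expression indices (MBEI), linear intensities per probe set, given as HFR then PPP, and the figure after ± is the authors' model standard error, which reflects disagreement among the probes of a set on that array and holds no biological variation. With 1 array per tissue no difference has a replicate check and no p-value is given. The genes that check the labels lay opposite to them. CER1, whose regulatory fragment drove the EGFP, read 108.3 ± 19.2 (marginal) against 420.2 ± 193.3 MBEI, and TBXT, a streak factor, read 7128.6 ± 80.7 against 3691.4 ± 147.1 MBEI. With its marginal HFR reading, CER1 had a log2 difference (HFR minus PPP) of -1.96 with a standard error of 0.71. TBXT differed 1.93-fold, under the 2-fold threshold used below. Because both lay opposite to the labels, the text speaks of the HFR-labelled and the PPP-labelled array. Every direction below carries that doubt. The level filter kept genes that were called present and reached 70.8 MBEI on the brighter array. Among the 7389 genes kept, 285 reached 2-fold toward the HFR-labelled array and 314 toward the PPP-labelled array, and the median log2 difference, HFR minus PPP, was -0.05. Setting the poly-A control RNAs equal would give 5970 and 17 genes instead, because their median log2 difference was -1.44, so directions hold on the authors' scale, and any log2 difference below 0 but above -1.44 would turn positive. The 27 probe sets of the hybridization controls had a smaller median log2 difference, -0.24. With the poly-A control RNAs set equal, the log2 difference of CER1 was -0.51, less than its standard error from 0. Which scaling is right was not tested.

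PDGFA was the PDGF gene with the large difference between the arrays. The probe set that stands for it, the brighter of a pair, read 1245.8 ± 70.6 MBEI on the HFR-labelled array and 123.4 ± 10.7 MBEI on the PPP-labelled array, and was called present on both. It was 10.1-fold higher on the former, a log2 difference of 3.34 with a propagated model standard error of 0.15. With this probe set, only 12 of the 7389 passing genes had a larger difference in that direction, a rank that depends on the choice of set. The other PDGFA probe set read 344.4 ± 32.2 against 73.9 ± 19.8 MBEI, also present on both arrays. It was 4.66-fold higher on the same array, a log2 difference of 2.22 with a standard error of 0.41, whose width comes mostly from a relative error of 26.8% on the PPP-labelled array. The probe sets thus had one direction but not one size, with log2 differences 1.12 apart (standard error 0.44). Both carry the suffix that Affymetrix uses for probe sets matching several transcripts of 1 gene.

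**Figure D1:**
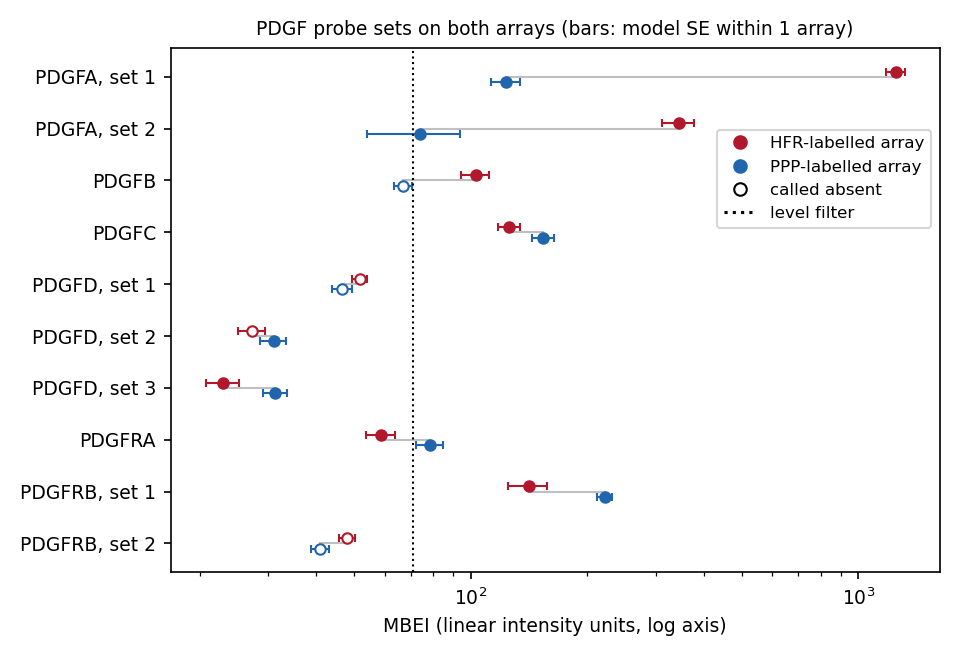
MBEI of all 10 PDGF probe sets (rows) on the HFR-labelled (red) and PPP-labelled (blue) arrays on a log axis, with bars of 1 model standard error, open symbols for calls of absent and a dotted line at the level filter of 70.8 MBEI. Both PDGFA sets lie far apart between the arrays, at 1245.8 against 123.4 and 344.4 against 73.9 MBEI, while PDGFRA lies close to the filter on both.

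The other ligands showed smaller differences. PDGFB, the ligand that binds both receptors, read 103.0 ± 8.7 MBEI on the HFR-labelled array and 67.0 ± 3.7 MBEI, called absent, on the PPP-labelled array. By these readings it was higher on the former by at least 1.54-fold. Its log2 difference of 0.62 reached down to 0.33 at 2 model standard errors. Here and below, a fold or difference given as at least a value rests on the readings and leaves out model error and processing setting. PDGFC, a ligand cut outside the cell before it binds, read 125.8 ± 8.4 against 153.6 ± 10.0 MBEI, present on both arrays. PDGFC was 1.22-fold higher on the latter, and its log2 difference of -0.29 (standard error 0.13) turned to 1.15 with the poly-A control RNAs set equal. In absolute size, 51.0% of all passing genes differed by as much as PDGFC.

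PDGFD, the CUB-domain ligand of PDGFRB, did not pass the level filter with any of its 3 probe sets. The brightest read 51.8 ± 2.3 against 46.6 ± 2.7 MBEI and was absent on both arrays, so it gives no fold. Another read 27.3 ± 2.2 (absent) against 31.0 ± 2.4 MBEI (present). The third read 23.0 ± 2.3 against 31.3 ± 2.2 MBEI, present on both, a log2 difference of -0.44 (standard error 0.18). The 2 PDGFD probe sets called present on at least 1 array thus lay below 0 on the authors' scale, and both were under the level filter.

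PDGFRA, the receptor for PDGFA and PDGFC, read 58.7 ± 5.1 MBEI on the HFR-labelled array and 78.5 ± 6.2 MBEI on the PPP-labelled array, present on both. It was 1.34-fold higher on the latter, a log2 difference of -0.42 with a standard error of 0.17, which turned to 1.02 with the poly-A control RNAs set equal. Its difference was beyond 2 model standard errors, with 0 outside a range of -0.76 to -0.08, but 35.4% of all passing genes differed by as much in absolute size. PDGFRA passed the filter through the PPP-labelled array alone, and its single probe set leaves no second reading. In pieces of tissue, fewer cells that make a transcript and less of it per cell cannot be told apart.

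PDGFRB, the receptor for PDGFB and PDGFD, known from mouse as a gene of vascular mural cells, read 141.3 ± 16.4 against 221.5 ± 10.0 MBEI, present on both arrays. PDGFRB was 1.57-fold higher on the latter, a log2 difference of -0.65 (standard error 0.18) that turned to 0.79 with the poly-A control RNAs set equal. In absolute size 19.2% of all passing genes differed by as much. Its other probe set was absent on both arrays at 48.0 ± 2.4 and 40.9 ± 2.1 MBEI.

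**Figure D2:**
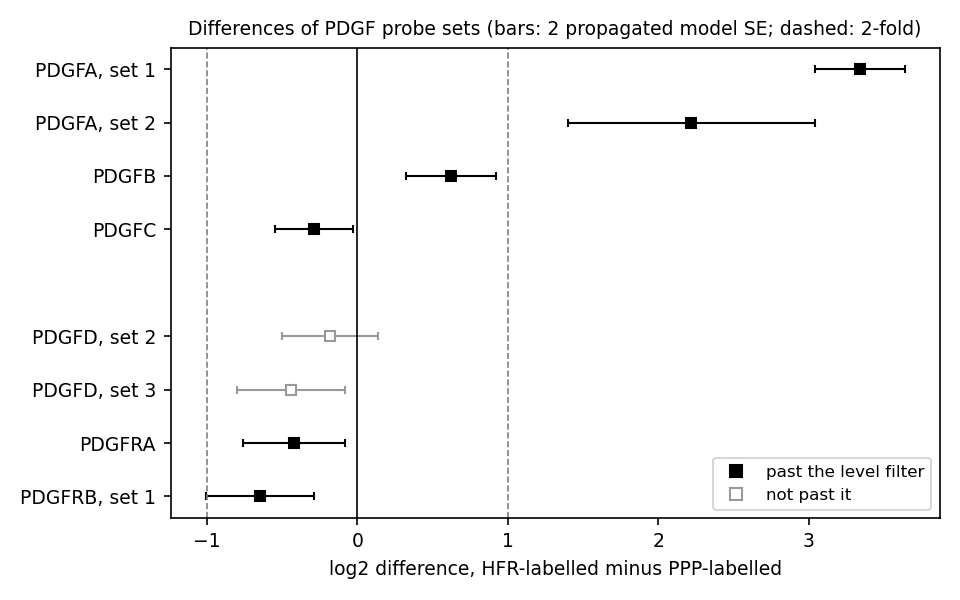
Log2 difference (HFR-labelled minus PPP-labelled) of the PDGF probe sets called present on at least 1 array, with bars of 2 propagated model standard errors, filled symbols past the level filter and dashed lines at 2-fold. The PDGFA sets lie at 3.34 and 2.22, beyond 2-fold, and PDGFC, PDGFRA and PDGFRB lie at -0.29, -0.42 and -0.65, the last 3 turning above 0 if the poly-A control RNAs are set equal.

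Of the 6 genes, 5 passed the filter, with 2 above 0 and 3 below 0 on the authors' scale, where the poly-A scaling would turn those 3. Among the 5, PDGFB and PDGFRA reached the filter level on their brighter array only. At 2-fold or more were 1 of the 5, PDGFA, and 0 on the PPP-labelled side. The shares over all passing genes were 8.11% in either direction, 3.86% toward the HFR-labelled array and 4.25% toward the PPP-labelled array, and since the family was chosen on this contrast nothing is read from the count. The median log2 difference of the 5 was -0.29, against -0.05 over all passing genes.

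**Figure D3:**
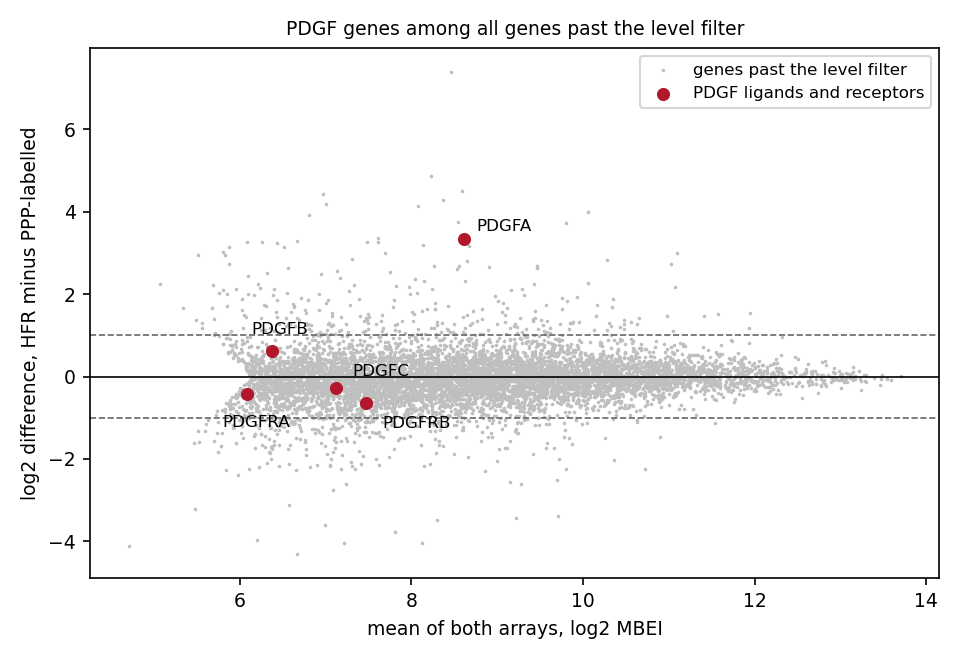
Log2 difference (HFR-labelled minus PPP-labelled) against the mean log2 MBEI of both arrays for the 7389 genes past the level filter (grey), with the 5 passing PDGF genes in red and dashed lines at 2-fold. PDGFA stands at 3.34, while PDGFB, PDGFC, PDGFRA and PDGFRB lie between -0.65 and 0.62 within the main band of genes on the authors' scale.

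The epithelial ligand was set against the mesodermal receptor as each gene's own difference between the arrays, so that no probe set's brightness was compared with another's. PDGFA minus PDGFRA was 3.75 on the log2 scale, with a propagated model standard error of 0.23. The PDGFA to PDGFRA ratio was thus 13.5-fold higher on the HFR-labelled array. Most of this was PDGFA's own 3.34, which was known when the family was chosen. The -0.42 of PDGFRA came from readings of 58.7 and 78.5 MBEI, near the level filter and below it on the HFR-labelled array. With the dimmer PDGFA probe set the contrast was 2.64 (standard error 0.44), or 6.23-fold. A common scaling of an array cancels in this contrast, and it was 3.75 with the poly-A control RNAs set equal as well. PDGFC, which shares the receptor, stood only 0.13 from PDGFRA (standard error 0.22), and PDGFRB stood -0.23 from it (standard error 0.25). PDGFB, absent on the PPP-labelled array, stood at least 1.04 from PDGFRA (standard error 0.22).

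Markers of cell layers differed between the arrays as well. These lists and those below were chosen with earlier results of these data known, so nothing is read from their shares at 2-fold. Of 16 epithelial marker genes on the array 11 passed, with a median of 1.12. Over all passing genes the shares at 2-fold were 3.86% toward the HFR-labelled array and 4.25% toward the other. Of the 11 epithelial genes, 6 reached 2-fold toward the HFR-labelled array and 0 toward the other. They included the epithelial cadherin CDH1 (850.4 ± 64.3 against 92.4 ± 27.0 MBEI), the tight junction protein CLDN1 (6219.4 ± 123.7 against 775.7 ± 61.5 MBEI) and the junction protein PLEKHA7 (609.0 ± 11.4 against 62.8 ± 3.2 MBEI). PLEKHA7 reached the filter level on the HFR-labelled array only. Above 0 lay 10 of the 11, though TJP1 had a log2 difference of only 0.08 and GRHL1 of 0.19. LAMA1 was the 1 below 0, at -0.35. The 5 epithelial genes that did not pass were absent on both arrays, with log2 differences of 0.08 to 0.70. The summed MBEI of the epithelial list was 15028.9 against 4150.5. CLDN1 and EPCAM weighed most in it, EPCAM at 5168.4 ± 124.4 against 1793.8 ± 85.2 MBEI. Such sums, here and below, follow the brightest probe sets and include genes absent on both arrays. Of 11 extraembryonic and endoderm carrier genes 6 passed, and the 6 reached 2-fold toward the HFR-labelled array, with a median of 3.83. Among them were TTR, APOA1, RBP4A and SPP1. The summed MBEI of the 11 was 8977.1 against 959.8. Of the 6, HNF4A, FGB and SPP1 reached the filter level on the HFR-labelled array only, so count and median partly follow from the filter. The 5 that did not pass, 4 of them absent on both arrays, had log2 differences of 0.05 to 0.40. The endoderm factor HNF4A read 342.4 ± 42.3 against 57.8 ± 3.8 MBEI (absent). The part of these tissues in the PDGFA difference was not tested.

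Mesodermal markers lay in both directions. Of 25 genes of migrating mesoderm 20 passed, with 6 that reached 2-fold toward the PPP-labelled array and 1 toward the HFR-labelled array, a median of -0.57 (0.87 with the poly-A scaling) and summed MBEI of 19068.0 against 16566.5. Over all passing genes the shares at 2-fold were 4.25% and 3.86%. TBXT weighed most in the summed MBEI, at 7128.6 against 3691.4, and the sum lay opposite to the median. Toward the PPP-labelled array the mesenchymal factor TWIST1 differed at least 16.4-fold, the cadherin CDH11 4.48-fold, the collagen COL5A2 6.09-fold and the gelatinase MMP2 at least 9.37-fold. TWIST1, COL5A2 and MMP2 reached the filter level on that array only. MESP1, which marks nascent mesoderm, was the 1 gene at 2-fold in the other direction (2.60-fold). Of the 20 passing genes 7 lay above 0, with TBXT (1.93-fold), MSGN1 (1.76-fold) and FN1 (1.71-fold) among them, and 13 below 0. Of the other markers that define this list, SNAI2 had a log2 difference of 0.30, VIM -0.07 and CDH2, the cadherin through which PDGF is known to act on chick mesoderm, -0.61, while TBX6 was absent on both arrays. Of 13 blood and endothelial markers 6 passed, with 4 that reached 2-fold toward the PPP-labelled array and 0 toward the other, a median of -1.82 and summed MBEI of 6985.9 against 11652.6. Of the 4, CDH5, TAL1 and SOX7 reached the filter level on the PPP-labelled array only, so count and median partly follow from the filter. The 7 that did not pass, 6 of them absent on both arrays, had log2 differences of -0.27 to 0.28. TAL1 differed 13.6-fold, SOX7 4.02-fold and HHEX 3.08-fold. The 2 others that passed, FLI1 and SOX17, had log2 differences of -0.68 and -0.53. SOX17 was the brightest of the list, at 5028.5 ± 91.4 against 7241.3 ± 63.8 MBEI. Membership of this list does not exclude expression in endoderm. CDH5 was absent on the HFR-labelled array (18.5 ± 5.4 MBEI) and LMO2, with the probe set that stands for it, on both. No defining marker of these lists was listed at 0. Their part in the PDGFRA and PDGFRB values was not tested.

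**Figure D4:**
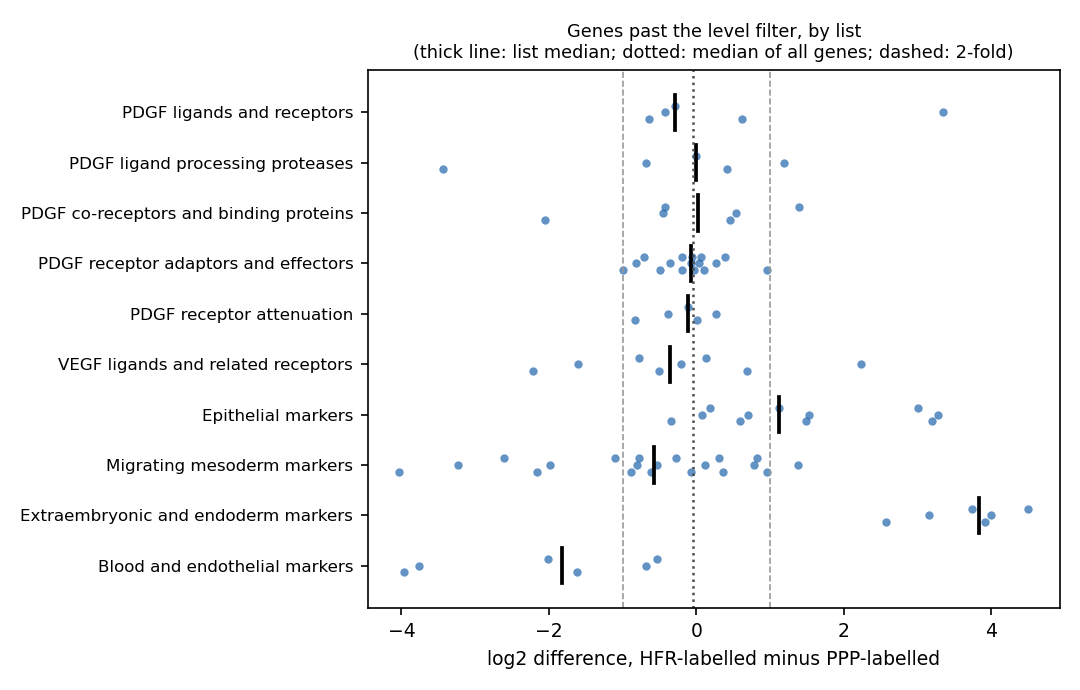
Log2 difference (HFR-labelled minus PPP-labelled) of each gene past the level filter (points), by gene list, with the list median as a thick line, the median of all passing genes as a dotted line at -0.05 and dashed lines at 2-fold. The epithelial list has its median at 1.12 and the extraembryonic list at 3.83, while the PDGF family apart from PDGFA lies within 2-fold on the authors' scale.

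Enzymes that cut PDGF precursors differed by member. Of 7 such genes on the array 5 passed, of which 1 reached 2-fold in each direction, with a median of -0.01. That is 40.0% of the 5, a share that rests on 2 genes, beside 8.11% of all passing genes. PCSK5, a proprotein convertase of the kind that trims PDGFA and PDGFB, read 180.9 ± 7.7 against 1959.1 ± 132.0 MBEI, 10.8-fold higher on the latter, with log2 differences of -3.44 to -2.13 over its 4 passing probe sets. PCSK5 was thus high on the array where PDGFA was low, but other enzymes of this list were near equal on the arrays. FURIN, under the level filter, read 56.8 ± 4.7 against 55.5 ± 4.0 MBEI, present on both arrays. PLAU, which passed, read 207.7 ± 5.7 against 209.1 ± 5.4 MBEI, a log2 difference of -0.01. PLAT was absent on both arrays. ST14, the membrane protease matriptase, which can process PDGFC and PDGFD, read 910.7 ± 26.3 against 398.7 ± 13.7 MBEI, 2.28-fold higher on the HFR-labelled array, with 1.19 and 1.31 on the log2 scale over its passing probe sets. The convertases PCSK6 and PCSK7 had log2 differences of 0.41 and -0.68, and the 2 passing probe sets of PCSK6 lay on either side of 0.

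Of 7 genes for co-receptors and ligand-binding proteins 6 passed, again 1 at 2-fold or more in each direction, with a median of 0.02. Here 33.3% of the 6, a share that rests on 2 genes, stands beside 8.11% of all passing genes. NRP1, a co-receptor shared by VEGF and PDGF ligands, read 250.3 ± 9.6 against 1036.6 ± 15.9 MBEI, 4.14-fold higher on the latter, and its other passing probe set had a log2 difference of -1.70. PDGFRL, a secreted relative of the PDGF receptor ectodomain with no kinase, read 286.6 ± 15.3 against 109.7 ± 10.8 MBEI, 2.61-fold higher on the HFR-labelled array. PDGFRL therefore lay on the side of PDGFA and the signalling receptors on the other, although the receptors' signs turn with the poly-A scaling. PDGFRL had 1 probe set, and the list as a whole did not follow its direction, with 3 passing genes above 0 and 3 below. NRP2 and the matrix protein CCN2 had log2 differences of 0.46 and 0.54. SPARC (1385.5 ± 28.1 against 1904.6 ± 43.5 MBEI) and DCBLD2, which also passed, had -0.46 and -0.42.

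Downstream signalling genes lay on both sides of 0. Of 21 adaptors and effectors of the receptors on the array 16 passed and 1 (6.25%, near the 8.11% of all passing genes) reached 2-fold, the Src family kinase FYN, 2.01-fold higher on the PPP-labelled array (368.4 ± 16.9 against 739.3 ± 16.1 MBEI), a direction that turns with the poly-A scaling. FYN lay just under 2-fold, at -0.98, with quantile normalization and with loess, and at -0.95 with the pseudocount. The list's median was -0.07. The PI3 kinase regulatory subunit PIK3R1 had a log2 difference of 0.95, the catalytic subunit PIK3CA -0.82 and the phosphatase PTPN11 -0.71. Of 11 genes that attenuate the receptors 5 passed, with 0 at 2-fold or more, 2 above 0, 3 below 0 and a median of -0.12. The ubiquitin ligase CBLB had a log2 difference of -0.84, the phosphatase PTPN1 0.27, and the feedback inhibitors SPRY2 and SPRED1 had -0.12 and -0.38.

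PDGF receptors share their origin with the KIT, CSF1R and VEGF receptor kinases, and in the RefSeq gene order of assembly GRCg7b KIT and then KDR follow PDGFRA on one side. KDR, the main VEGF receptor, read 849.6 ± 22.4 against 1459.6 ± 15.2 MBEI, a log2 difference of -0.78, in the same direction as PDGFRA. KIT, the receptor between them, read 111.5 ± 5.7 MBEI on the HFR-labelled array and 23.8 ± 2.9 MBEI (absent) on the PPP-labelled array, so that it was higher on the former by at least 4.68-fold. These neighbouring receptors thus did not share a direction on the authors' scale, and with the poly-A scaling the signs of PDGFRA and KDR turn. CSF1R, next to PDGFRB, did not pass the filter (74.8 ± 3.0, absent, and 62.2 ± 2.7 MBEI). Of 9 genes in the wider list of these kinases and their ligands 8 passed, with a median of -0.36. At 2-fold or more were 3 of the 8 (37.5%), beside 8.11% of all passing genes, and these 3 reached the filter level on their brighter array only. KIT was the 1 that reached 2-fold toward the HFR-labelled array, and the 2 toward the PPP-labelled array were VEGFD, a ligand of FLT4 (at least 3.06-fold), and FLT1, another VEGF receptor (at least 4.62-fold). The FLT1 difference of -2.21 on the log2 scale was -0.06, with a different probe set, when s, x and a suffixes were left out, and that of KIT was 1.36 in place of 2.23 with the pseudocount.

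The genes nearest to PDGFA in log2 MBEI over the 2 arrays were APOA2, TTR, NOXO1, MYLK and SOX3, at distances of 0.137 to 0.520. APOA2, an apolipoprotein, read 1218.6 ± 126.2 against 135.3 ± 3.6 MBEI, and SOX3, a factor of epiblast and neural plate, 916.2 ± 75.9 against 148.9 ± 3.7 MBEI. TTR, a thyroid hormone carrier, had a wide error at 1365.0 ± 511.7 MBEI on the HFR-labelled array. MYLK, the myosin light chain kinase, had a log2 difference of 2.70, but -0.04 with a different probe set when s, x and a suffixes were left out. The genes nearest to PDGFRA were HOXA4, SLC41A2, BTBD9, RIMBP3C and DMA, at distances of 0.022 to 0.040. With 2 arrays, likeness means only a similar pair of values.

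**Figure D5:**
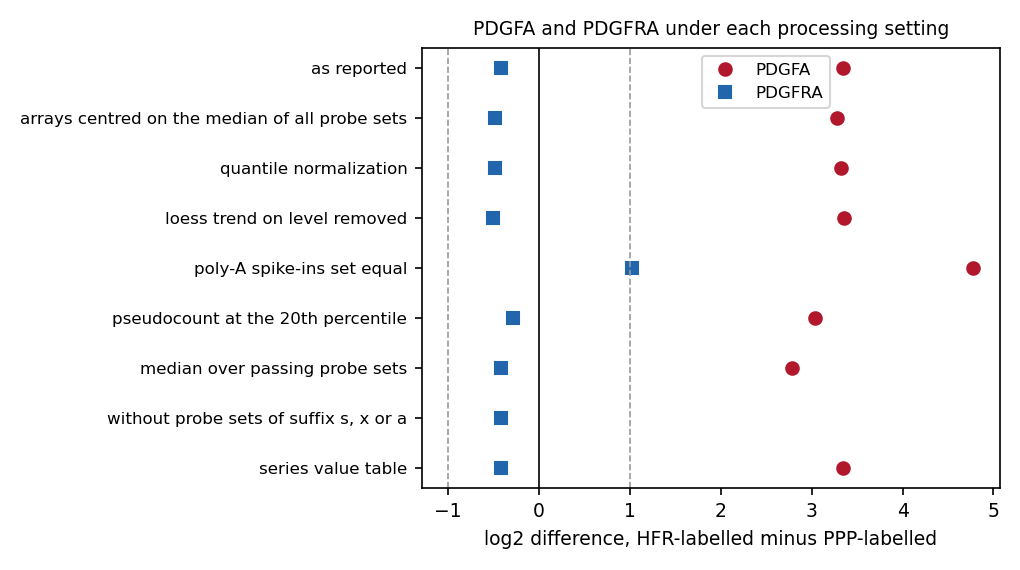
Log2 difference (HFR-labelled minus PPP-labelled) of PDGFA (red circles) and PDGFRA (blue squares) under each processing setting, with dashed lines at 2-fold. PDGFA lies between 2.78 and 3.36 except at 4.78 with the poly-A control RNAs set equal, and has no value when s, x and a suffixes are left out, while PDGFRA lies between -0.51 and -0.29 except at 1.02 with that scaling.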

How the data were processed

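RNA of 2 tissues was measured on 1 array each. Invariant set normalization to a baseline array was done by the authors, per the design text of the series, before model-based expression indices (MBEI) were fitted to the perfect match probes of 6 arrays, of which 4 belong to another study. The deposited values are intensities on a linear scale, and per the file headers each has a detection call (P, M or A, with no unit, deposited by the authors as other than a number) and a standard error, itself an intensity. The submitters' processing notes name GCOS 1.3. The 12 columns of the other 4 arrays were not used. The series' value table held the same MBEI for 38535 of 38535 probe sets.

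Of 38535 probe sets 153 were controls. Symbols came from the platform annotation (1 symbol for 27168 probe sets, several for 177, none listed for 11037) and were updated through gene IDs with RefSeq (GRCg7b; 26853 matched). The array values name no genome build, so no coordinates are given, and no sequences are shown. Each gene was represented by its brightest probe set in mean log2 MBEI. The log2 difference was HFR minus PPP, with model errors propagated. A dimmer reading with no call of present was held at no less than the lowest MBEI called present there (6.5 HFR, 4.8 PPP). Its fold is a lower bound by the readings, with model error left out. The level filter was the median of the brighter array's value, and 2-fold was the counting threshold. No test is possible with 1 array per tissue, and precision is limited by the number of arrays. On the HFR array 38.4% of probe sets and on the PPP array 42.2% were called present, with median model errors of 4.71% and 4.18%.

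Members and gene lists were chosen with earlier results of these data known. Named genes were every member, up to 4 passing genes of each of 10 other lists by absolute difference, CER1 and TBXT, and the 5 passing genes nearest to PDGFA and to PDGFRA. SNAI2, VIM, CDH2, MESP1, MSGN1, FN1, TBX6, HNF4A, FGB, LMO2, CSF1R, FLI1, SOX17, TJP1, GRHL1, LAMA1, FURIN, PLAU, PLAT, SPARC and DCBLD2 were named outside that rule, with their values seen. Alternatives were median centring, quantile normalization, loess (span 0.3), poly-A controls set equal (33 probe sets present on both arrays), a pseudocount of 31.9 MBEI, the median of the probe sets that passed for a gene, leaving out suffixes s, x and a, other filters and thresholds, and the value table. The log2 difference and the 2-fold count were tested on simulated data with noise smaller than the model errors. Every simulated reading was called present, so the lower bound was not tested. Python 3.11.15, numpy 2.4.6, pandas 2.3.3 and statsmodels 0.14.6 were used.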

Additional observations from a re-analysis of the deposited data

How the results depend on the processing

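With the poly-A control RNAs set equal, PDGFA had a log2 difference of 4.78, PDGFRA of 1.02 and FYN of 0.44, and 5987 genes reached 2-fold, since that scaling moves the median of all passing genes from -0.05 to 1.39. With the pseudocount PDGFA had 3.04 and its contrast with PDGFRA 3.33. With the median over passing probe sets they were 2.78 and 3.20. With s, x and a suffixes left out, MYLK had -0.04, and PDGFA and the contrast have no value, because both PDGFA probe sets carry the suffix a. At 1.5-fold 1660 genes were counted and at 4-fold 117, in place of 599. Apart from the poly-A scaling, PDGFRA lay between -0.51 and -0.29 and the contrast between 3.20 and 3.87 under the alternatives that gave a value. Of the 5 passing PDGF genes, 4 reached 2-fold with the poly-A scaling, beside 5987 of all 7389 passing genes. At 1.5-fold 3 of the 5 were counted, beside 22.5% of all passing genes. Without the suffixed probe sets, where PDGFA has no value, 0 PDGF genes reached 2-fold. There 241 and 281 of 5493 passing genes did so toward the HFR-labelled and the PPP-labelled array. Of 561 values recomputed under the alternatives, the 2 that changed sign from a difference of 2-fold or more were FYN and MYLK. No paired analysis was possible because each tissue has 1 array. Low intensity limits PDGFD and PDGFRA, and 1 array per tissue limits all members.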
